A study of Mus musculus with 18 samples.

Results

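The genes described here are 32 genes of fat cell identity, lipid droplets, lipid synthesis and fat cell hormones (adipokines), read in uterine RNA libraries from mice. They were chosen by symbol, all 32 symbols were among the 22238 in the count table, and they are described in each library. They were split by textbook knowledge of where they are made, 14 into genes largely restricted to fat cells and 18 into genes that uterine cells also make. The question was which of them move as fat tissue carried with an organ would, and which move on their own. All mice were ovariectomized CD-1 adults, an outbred stock whose ovarian hormones had been removed by surgery. Each received doxorubicin (DOX, an anthracycline chemotherapy drug) or phosphate-buffered saline (PBS, its vehicle), and within each arm estradiol (E2), progesterone (P4) or oil (OIL, the hormone vehicle). RNA of the whole uterus, with any tissue attached to it, was sequenced from DOX E2, PBS E2, DOX P4, PBS P4, DOX OIL and PBS OIL mice, with 3 libraries a group and 18 in all. The labels do not say that each library came from 1 animal, and doses and times were not found in them, so every p-value below measures the spread between these samples, which may be technical.

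White fat cells store triglyceride in one large lipid droplet coated with perilipins, release fatty acids from it through lipases, and secrete adipokines such as leptin and adiponectin. The nuclear receptor PPARγ, with C/EBPα, drives their gene programme. In rodents the uterine horns and ovaries lie against large gonadal fat pads and the fat-bearing mesometrium, so a dissected uterus can carry fat with it. Uterine cells also make fatty acids and handle lipid, and estrogen is known to induce lipid synthesis in uterine epithelium.

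The libraries held 18042357 to 39783785 counts, with PBS E2 replicate 1 the deepest. The fat cell genes took very different shares of these libraries. The 14 fat-cell genes together made up 0.00178%, 0.00164% and 0.0137% of the counts in DOX E2 replicates 1, 2 and 3. They made up 0.383%, 0.0214% and 0.0773% in PBS E2. Across the other 4 groups the share ran from 0.009% to 0.264%, which was reached in PBS OIL replicate 2. Summed CPM (counts scaled to a common library size) of the 14 genes ranged 230-fold between the lowest and the highest library. For the 18 genes also made by uterine cells the range was 6.12-fold. In whole-organ RNA, fewer fat cells and less of these RNAs per fat cell cannot be told apart.

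**Figure D1:**
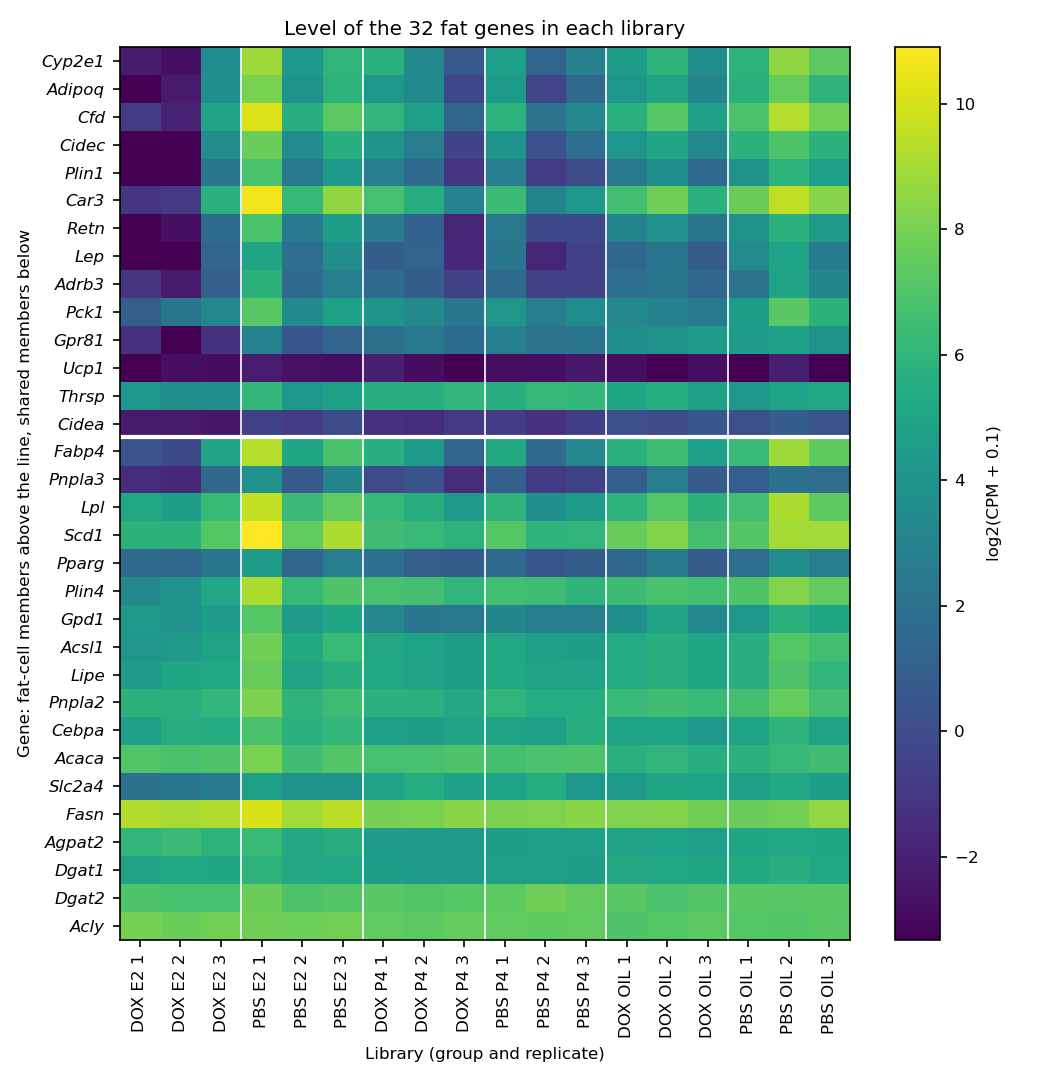
Each row is a gene and each column a library, coloured by log2(CPM + 0.1). Genes are ordered within the fat-cell genes (above the white line) and the genes also made by uterine cells (below it) by how steeply they followed the fat score. Adipoq and the genes around it were near 0 in DOX E2 1 and 2 and highest in PBS E2 1 and PBS OIL 2, while Dgat2 and Acly varied little.

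Promoters of 22 of the 32 genes were in the RefSeq table for GRCm38.p6, as 300-base windows at 27 starts. The windows of Lep, Plin1 and Cidec are printed because these 3 genes moved together across the libraries and because each holds TTGCNNAA, the core of a C/EBP site, in capitals. The windows lie at chr6:29059971-29060270 on the plus strand, chr7:79732727-79733026 on the minus strand and chr6:113434715-113435014 on the minus strand. The Cidec window belongs to 1 of its 2 starts in the table.
Lep: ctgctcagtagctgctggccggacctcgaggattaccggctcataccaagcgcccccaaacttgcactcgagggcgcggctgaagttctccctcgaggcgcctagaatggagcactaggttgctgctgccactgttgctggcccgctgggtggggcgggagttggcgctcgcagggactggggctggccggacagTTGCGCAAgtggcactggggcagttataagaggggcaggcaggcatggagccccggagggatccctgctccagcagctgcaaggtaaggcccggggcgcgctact
Plin1: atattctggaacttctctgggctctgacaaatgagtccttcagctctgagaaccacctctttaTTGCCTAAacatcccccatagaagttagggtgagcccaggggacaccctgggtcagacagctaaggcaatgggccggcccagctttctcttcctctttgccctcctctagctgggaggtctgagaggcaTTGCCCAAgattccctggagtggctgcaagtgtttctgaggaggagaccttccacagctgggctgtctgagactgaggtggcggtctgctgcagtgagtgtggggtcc
Cidec: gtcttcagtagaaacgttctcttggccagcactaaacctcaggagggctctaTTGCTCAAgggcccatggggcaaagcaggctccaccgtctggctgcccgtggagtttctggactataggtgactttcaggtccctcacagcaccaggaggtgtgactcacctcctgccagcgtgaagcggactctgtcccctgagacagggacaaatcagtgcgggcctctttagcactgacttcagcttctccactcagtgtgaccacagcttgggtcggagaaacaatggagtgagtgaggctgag
The match in Lep is the full palindrome TTGCGCAA at position -55 from the start, and that in Cidec begins at -198. Read on both strands, TTGCNNAA was in 4 of the 27 windows of these genes (those of Lep, Plin1, Cidec and Pparg) and in 10.8% of 32851 windows of all genes. The palindrome TTGCGCAA was in 0.183% of all windows and TTGCNCAA in 2.94%, the second in Lep, Plin1 and Cidec. The PPAR direct repeat AGGTCANAGGTCA was in 0 of the 27 windows and in 0.0396% of all windows. These were among 12 patterns looked at, and the choice of what to print came after. A looser form and a reverse form of that repeat were in 0 of the 27, against 0.381% and 0.207% of all windows. TATAAA and TATAAAA were in 3 each, against 13.6% and 5.48%. CCAAT and GGGCGG were in 10 each, against 37.4% and 35.7%. TCACNNCAC was in 2 and TCACCCCAC in 1, against 3.77% and 0.551%. TATAAA overlaps TATAAAA, and the C/EBP patterns overlap each other. A match describes letters in a window and says nothing of binding.

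The secreted products of fat cells are given first. Adipoq encodes adiponectin, a hormone made by fat cells, and lies on chromosome 16 at 23146536 to 23158028 of GRCm38. Its reads numbered 0, 2 and 307 in DOX E2 and 9612, 295 and 1121 in PBS E2. They numbered 404, 296 and 21 in DOX P4 and 472, 16 and 63 in PBS P4. In DOX OIL there were 445, 686 and 166, and in PBS OIL 1188, 4020 and 1332. All 3 DOX E2 libraries were below all 3 PBS E2 libraries, but replicate 3 of DOX E2, at 12.6 CPM, was close to PBS E2 replicate 2, at 15.99 CPM. The P4 groups overlapped, and the OIL groups did not.

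Lep, the gene of the satiety hormone leptin (chromosome 6, 29060220 to 29073877), had 0, 0 and 2.38 CPM in DOX E2, against 31.3, 3.42 and 12.9 CPM in PBS E2. Its DOX OIL values of 2.57, 4.45 and 1.69 CPM were below the PBS OIL values of 11.8, 30.4 and 5.97 CPM. Retn encodes resistin, in mice a hormone of fat cells, and had 0, 0.0516 and 3.20 CPM in DOX E2, against 118, 5.53 and 24.1 CPM in PBS E2. Cfd encodes adipsin (complement factor D), which mouse fat secretes in bulk, and had 0.465, 0.155 and 32.2 CPM in DOX E2, against 1128, 47.0 and 159 CPM in PBS E2. For all 4 secreted products the same libraries were low, DOX E2 replicates 1 and 2, and PBS E2 replicate 1 was the highest of all 18.

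The proteins that coat and fuse the lipid droplet followed the same libraries. Plin1, the perilipin that guards the white fat droplet (chromosome 7, 79720218 to 79732903), had 0, 0 and 4.76 CPM in DOX E2, against 120, 5.37 and 19.5 CPM in PBS E2. Cidec, which fuses droplets, had 0, 0 and 12.6 CPM in DOX E2, against 202, 11.98 and 49.2 CPM in PBS E2. DOX E2 replicate 3 lay inside the PBS E2 range for Cidec, which was the only fat-cell gene tested whose 2 groups overlapped there. Car3, a carbonic anhydrase abundant in fat and muscle, was at 0.3615, 0.413 and 54.1 CPM in DOX E2, against 1640, 74.0 and 366 CPM in PBS E2. DOX E2 replicates 1 and 2 were again close to 0. Cyp2e1, a cytochrome P450 that liver and fat express, was at 0.103, 0.0516 and 11.9 CPM in DOX E2, against 451.5, 19.4 and 63.0 CPM in PBS E2. Adrb3, the β3-adrenergic receptor through which nerves trigger lipolysis, was at 0.3615, 0.103 and 1.89 CPM in DOX E2, against 56.9, 3.03 and 6.65 CPM in PBS E2. Fabp4, a fatty acid carrier of fat cells that macrophages and endothelium also make, had 1.24, 0.825 and 32.04 CPM in DOX E2, against 649.5, 34.0 and 115 CPM in PBS E2. For Car3, Cyp2e1, Adrb3 and Fabp4 the 2 groups did not overlap.

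A group of 9 fat-cell genes (Adipoq, Lep, Retn, Cfd, Car3, Plin1, Cidec, Adrb3 and Cyp2e1) moved together. In the 16 libraries with at least 10 Adipoq reads, Adipoq CPM ranged 388-fold. Plin1 held 0.274 to 0.688 counts per Adipoq count, a 2.51-fold range. Cidec per Adipoq ranged 2.67-fold, Cfd 2.72-fold, Lep 3.04-fold, Car3 3.43-fold and Cyp2e1 3.67-fold. Retn and Adrb3 were looser, at 6.39-fold and 10.9-fold. Fabp4, though listed among the genes that other cells make, ranged 2.98-fold. The 9 genes were grouped after their values were seen, so these ranges are descriptions.

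These genes also varied inside groups, where treatment was the same. The SD of log2 CPM among the replicates of a group was 1.52 to 2.63 for the 9 genes and 1.99 for Fabp4, against a median of 0.19 over all 15494 genes tested. A fat score was made as the mean log2 CPM of 16 other fat cell genes that are not among the 32. Within groups the 9 genes moved by 1.93 to 2.88 on the log2 scale per unit of that score. Fabp4 moved by 2.49 ± 0.35 (SE) per unit.

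**Figure D2:**
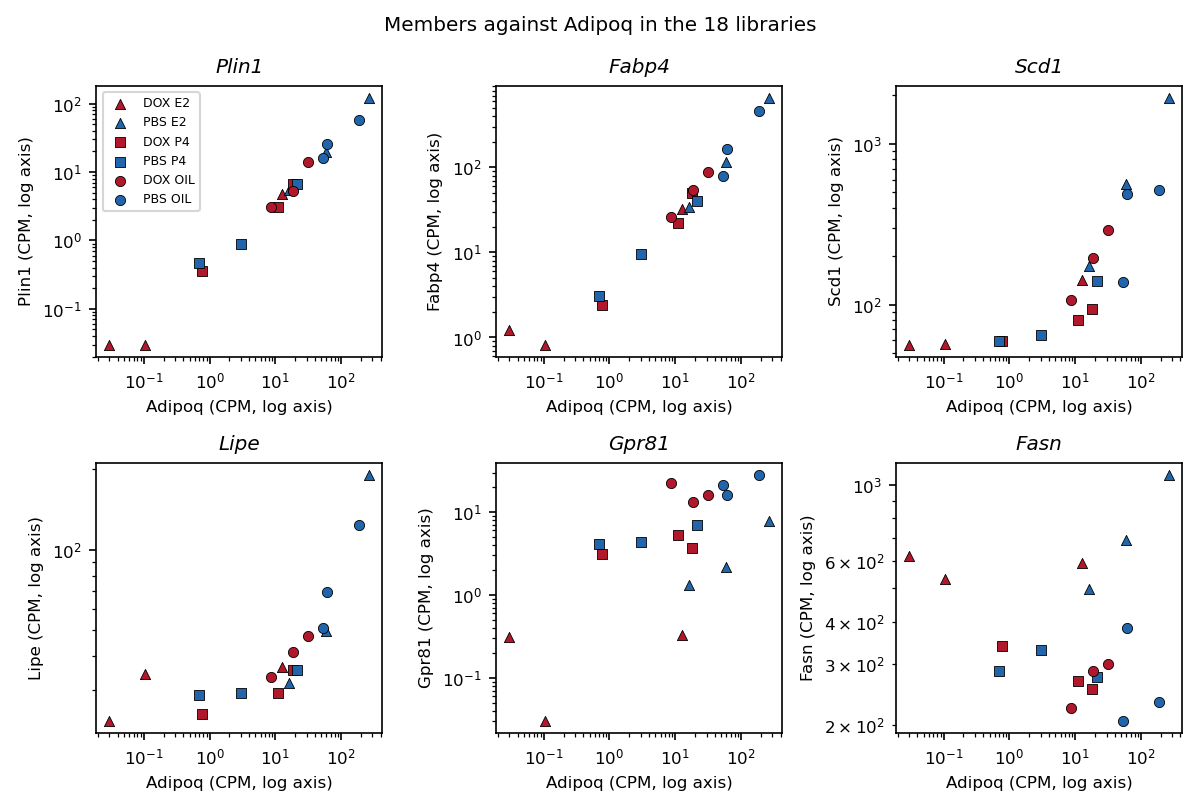
CPM of 6 genes (vertical, log axis) against CPM of Adipoq (horizontal, log axis), 1 point a library, with colour for DOX or PBS and shape for the hormone. A count of 0 is drawn at 0.03 CPM. Plin1 and Fabp4 lay along a line, Scd1 and Lipe were flat at low Adipoq and climbed at high Adipoq, and Gpr81 and Fasn separated by hormone.

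A second set of genes had a floor that did not go with Adipoq and higher levels in the libraries rich in it. Lpl, lipoprotein lipase, which frees fatty acids from circulating triglyceride, had 35.0, 25.5 and 77.2 CPM in DOX E2 and 777, 83.7 and 172 CPM in PBS E2. It moved by 1.48 ± 0.15 per unit of the score. Scd1, the desaturase that makes oleate, had 56.4, 56.8 and 142 CPM in DOX E2 and 1920, 174 and 566 CPM in PBS E2, and moved by 1.29 ± 0.13. Both genes stayed above 25 CPM in DOX E2 replicates 1 and 2, where Adipoq had 0 and 2 reads. Plin4, another droplet perilipin, which muscle also makes, moved by 0.99 ± 0.15, and Pparg by 1.21 ± 0.12. Pck1, which makes the glycerol backbone of triglyceride in fat and glucose in liver, was listed as a fat-cell gene and moved by 1.51 ± 0.17. Its 0.24 to 9.06 counts per Adipoq count were a 37.7-fold range.

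Lipases and genes of fatty acid and glycerol handling were also read in the E2 groups. Lipe, the hormone-sensitive lipase, had 22.9, 34.2 and 36.5 CPM in DOX E2, against 191, 31.8 and 49.6 CPM in PBS E2, and the groups overlapped. Pnpla2, adipose triglyceride lipase, had 56.8, 52.6 and 67.9 CPM in DOX E2, against 270, 62.1 and 90.2 CPM in PBS E2, and the groups overlapped as well. Acsl1, which activates fatty acids for use, had 17.1, 20.5 and 29.0 CPM in DOX E2, against 225, 39.9 and 76.5 CPM in PBS E2, and the groups did not overlap. Gpd1, glycerol-3-phosphate dehydrogenase, ranged from 15.7 to 23.3 CPM in DOX E2 and from 22.2 to 141 CPM in PBS E2. Pnpla3, a lipase-related gene of fat and liver, was between 0.206 and 2.46 CPM in DOX E2 and between 1.46 and 15.8 CPM in PBS E2. Lipe, Pnpla2, Acsl1 and Gpd1 thus stayed above 15 CPM in every DOX E2 library, and Pnpla3 did not.

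Against their listing as fat-cell genes, Thrsp, Cidea and Gpr81 did not follow Adipoq across the 18 libraries. In the E2 groups alone, Gpr81 was highest where Adipoq was. Gpr81 had 282, 24 and 42 reads in PBS E2, beside 9612, 295 and 1121 of Adipoq. In DOX E2 it had 6, 0 and 8, beside 0, 2 and 307 of Adipoq. Thrsp (Spot 14), which promotes fatty acid synthesis, had 17.4, 12.9 and 12.4 CPM in DOX E2, and 337 of the 407 reads of all 14 fat-cell genes in DOX E2 replicate 1 were its own. Its mean level was highest in the P4 groups, with 51.0, 49.9 and 64.9 CPM in DOX P4 and 50.9, 72.4 and 69.5 CPM in PBS P4. Within groups Cidea moved by -0.01 ± 0.15 per unit of the score, Thrsp by 0.39 ± 0.18 and Gpr81 by 0.77 ± 0.39. Cidea, a droplet protein best known from brown fat, was low throughout, between 0.0822 and 1.76 CPM. Gpr81, the lactate receptor now named Hcar1, was highest in the OIL groups, with 13.3, 15.9 and 22.4 CPM in DOX OIL and 21.3, 28.2 and 15.99 CPM in PBS OIL. Ucp1, the uncoupling protein that defines brown fat, had 0 to 4 reads a library, the highest level being 0.139 CPM, and was removed by the filter on low counts. The other 31 genes passed it.

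**Figure D3:**
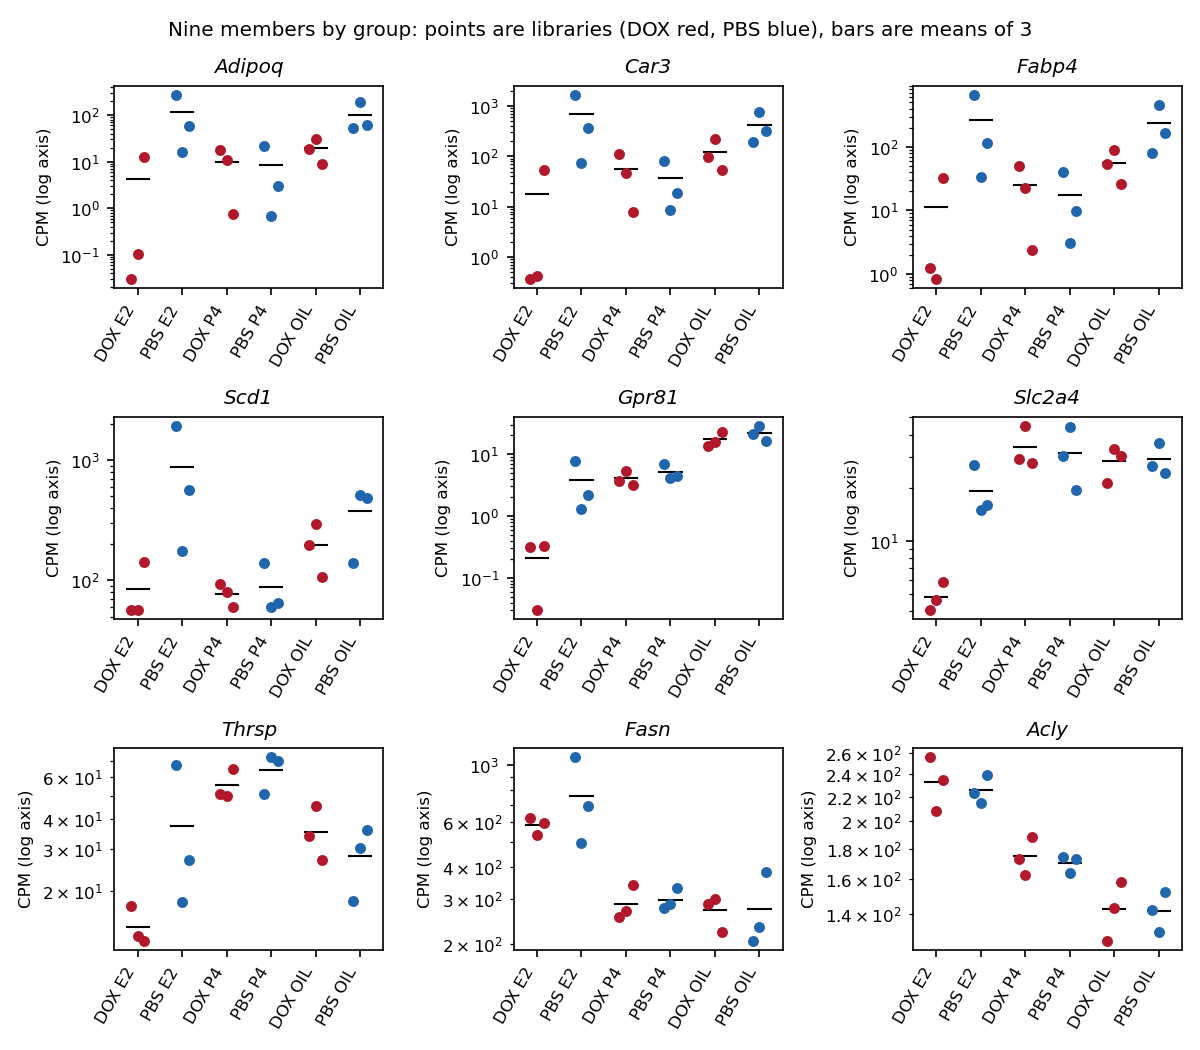
CPM (vertical, log axis) of 9 of the genes in the 6 groups, with a point for each library, red for DOX and blue for PBS, and a bar for the mean of 3. A count of 0 is drawn at 0.03 CPM. Adipoq, Car3 and Fabp4 spread over decades inside groups, Gpr81 and Slc2a4 were low in DOX E2 in every library, and Fasn and Acly sat higher in the E2 groups than in the OIL groups.

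The remaining genes had lower slopes on the score and smaller spread within groups than the 9 genes. Acly, which makes cytosolic acetyl-CoA, had a within-group SD of 0.12 and moved by -0.03 ± 0.05 per unit of the score. Dgat1 and Dgat2, the enzymes of the last step of triglyceride synthesis, had SDs of 0.20 and 0.23. Agpat2, an earlier enzyme of that path, had 0.25, Fasn (fatty acid synthase) 0.33 and Acaca (acetyl-CoA carboxylase) 0.37. Slc2a4, the insulin-responsive glucose transporter of fat and muscle, had 0.41, Cebpa 0.46 and Cidea 0.36. Their slopes were not all near 0, with 0.38 ± 0.15 for Cebpa, 0.33 ± 0.12 for Acaca, 0.26 ± 0.15 for Slc2a4, 0.21 ± 0.12 for Fasn, 0.19 ± 0.08 for Agpat2, 0.18 ± 0.06 for Dgat1 and 0.11 ± 0.09 for Dgat2. Per kilobase of exon in PBS E2, mean levels were 482 for Cfd, 242 for Car3, 181 for Scd1, 82.6 for Adipoq and 68.8 for Fasn, in CPM per kb. In DOX E2 the same genes stood at 11.9, 6.38, 17.4, 3.07 and 53.1 CPM per kb, so that Fasn came first of these 5. Means of the genes that follow Adipoq leaned on 1 library in each group. Cfd had 1128, 47.0 and 159 CPM in PBS E2 and 0.465, 0.155 and 32.2 CPM in DOX E2.

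Each comparison was tested with edgeR's quasi-likelihood test over all 15494 genes, and a gene is called where its adjusted p (Benjamini-Hochberg) was under 0.05. DOX under E2 compared DOX E2 with PBS E2, and 41% of all genes were called. All 13 fat-cell genes tested fell. Among the genes also made by uterine cells 12 of 18 fell and 0 rose. The median log2 fold change was -4.68 for the fat-cell genes and -1.62 for the others, against 0.02 for all genes. The groups did not overlap for 12 of the 13 fat-cell genes, all lower in DOX E2, and for 8 of the 18 others, against 49.3% of all genes.

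Among the genes in proportion with Adipoq, the fall was steep and its error wide. Adipoq fell by 4.68 ± 1.49 on the log2 scale (SE, adjusted p = 0.0211, edgeR), to a mean of 4.24 ± 7.25 CPM in DOX E2, against 114 ± 135 CPM in PBS E2 (SD, n = 3). Retn fell by 5.39 ± 1.36 (adjusted p = 0.00565) and Adrb3 by 4.75 (adjusted p = 0.00518). The log2 fold changes of Lep, Cfd, Car3, Plin1, Cidec and Cyp2e1 were between -4.23 for Lep and -5.40 for Cyp2e1. Fabp4 changed by -4.51 ± 1.46 (adjusted p = 0.0227).

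Slc2a4, Cidea and Gpr81 had lower adjusted p-values than Adipoq. Slc2a4 had 4.03, 4.59 and 5.83 CPM in DOX E2, against 26.8, 14.9 and 15.9 CPM in PBS E2, and fell by 2.0 ± 0.33 (adjusted p = 0.000264, edgeR). Cidea had 2, 2 and 2 reads in DOX E2, against 22, 9 and 17 in PBS E2, and fell by 2.72 ± 0.44 (adjusted p = 0.000254). Gpr81 had 6, 0 and 8 reads in DOX E2, against 282, 24 and 42 in PBS E2, and fell by 4.12 ± 0.73 (adjusted p = 0.000486). For these 3 genes all DOX E2 libraries were below all PBS E2 libraries, and DOX E2 replicate 3, where Adipoq was present, was close to the other 2. Gpr81 there had 0.0261 counts per Adipoq count, the lowest of the 16 libraries with at least 10 Adipoq reads. The part of carried fat in the fall of Gpr81 was not tested. Plin4 fell by 3.62 ± 0.65 and Thrsp by 1.41 ± 0.38. Pck1 changed by -3.50 ± 0.90, Scd1 by -3.38 ± 0.75, Pnpla3 by -3.11 ± 0.95, Lpl by -2.90 ± 0.88 and Acsl1 by -2.36 ± 0.50, and all 5 were called. Gpd1, Lipe, Pnpla2, Cebpa and Dgat1 were called with smaller values, from -1.73 ± 0.59 for Gpd1 to -0.42 ± 0.15 for Dgat1.

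Under E2 the genes not called were Pparg, Dgat2, Fasn, Acaca, Acly and Agpat2. Pparg, the master regulator of fat cells, was at -1.70 ± 0.68 (adjusted p = 0.057, edgeR) and Dgat2 at -0.44 ± 0.17 (adjusted p = 0.051). Fasn was at -0.37 ± 0.25, Acaca at -0.41 ± 0.27, Acly at 0.05 ± 0.10 and Agpat2 at 0.33 ± 0.19. The fat-cell count dropped to 4 with replicate 1 of PBS E2 omitted, and to 6 with either replicate 1 or replicate 2 of DOX E2 omitted. The genes also made by uterine cells then numbered 5, 4 and 6. The 5 included Agpat2, which was called higher, at 0.70 (adjusted p = 0.000362, edgeR). With DOX E2 replicates 1 and 2 both left out, an alternative chosen after seeing the data that leaves 1 DOX E2 library assumed to vary like the other groups, Cidea, Gpr81 and Slc2a4 were the 3 called. The 8 genes called under every omission of a single library of these groups were Retn, Cidea, Adrb3, Gpr81, Plin4, Scd1, Slc2a4 and Acsl1. Here and below, single omissions are of libraries in the groups compared, and those of other groups were not examined. The share of all genes called under omissions was not recorded.

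Under OIL and under P4, DOX was compared with PBS in the same way. Under OIL the share of all genes called was 0.0129%, and edgeR called 0 of the 31 genes. At an unadjusted p under 0.05 there were 2 fat-cell genes (Lep and Pck1) and 1 of the others (Acsl1), beside 1253 of all 15494 genes. DESeq2 called 0 of either set and 20 genes in all. The fat-cell genes had a median log2 fold change of -2.01 in DOX OIL against PBS OIL, with 12 of 13 negative, and Adipoq was at -2.36 ± 1.31 (adjusted p = 0.671). Adipoq averaged 19.6 ± 11.4 CPM in DOX OIL and 101 ± 74.7 CPM in PBS OIL (SD, n = 3 each). For 6 of the 13 fat-cell genes every DOX OIL library was below every PBS OIL library, against 11.3% of all genes without overlap in either direction.

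Under P4 the share of all genes called was 0%, with 822 of 15494 at an unadjusted p under 0.05 and 10 called by DESeq2. Of the 31 genes edgeR and DESeq2 called 0, and 1, Dgat2, had an unadjusted p under 0.05. The fat-cell genes had a median log2 fold change of 0.15, and 0 of 13 had groups that did not overlap. Of the others 3 of 18 did not overlap, all lower in DOX P4, against 17.2% of all genes. Adipoq averaged 10.1 ± 8.81 CPM in DOX P4 and 8.30 ± 11.3 CPM in PBS P4 (SD, n = 3 each). Slc2a4 had 29.2, 44.6 and 27.7 CPM in DOX P4 and 30.1, 44.4 and 19.4 CPM in PBS P4, overlapping ranges.

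The response to estradiol was read as E2 against OIL in each arm. These comparisons share their E2 and OIL libraries with those of DOX above. In the DOX arm 72.6% of all genes were called. Of the fat-cell genes 3 of 13 fell there and 0 rose, and of the others 4 of 18 rose and 2 fell. The genes that rose were the lipid synthesis enzymes Fasn, Acaca, Acly and Agpat2. The genes that fell were Gpr81, Cidea, Thrsp, Slc2a4 and Plin4.

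In the vehicle arm 61.4% of all genes were called. Of the fat-cell genes 2 of 13 fell, Gpr81 and Cidea, and of the others 5 of 18 rose and 0 fell. These counts changed without PBS E2 replicate 1, as given below. The rises were those of Fasn, Acaca, Acly, Agpat2 and Cebpa. The shares called among the listed genes were thus below those of all genes in both arms.

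Fasn rose with estradiol in both arms. It had 621, 531 and 591.5 CPM in DOX E2, against 287, 300.4 and 224 CPM in DOX OIL, and rose by 1.10 ± 0.25 (adjusted p = 0.000932, edgeR). In the vehicle arm it had 1072, 497 and 691 CPM in PBS E2, against 205, 233 and 383 CPM in PBS OIL, and rose by 1.46 ± 0.25 (adjusted p = 0.000124). All E2 libraries were above all OIL libraries of their arm, whether rich or poor in Adipoq.

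Acly rose by 0.71 ± 0.10 under DOX and by 0.67 ± 0.10 under PBS, and its groups did not overlap in either arm. Its levels were 256, 208 and 235 CPM in DOX E2, 223, 215 and 239 CPM in PBS E2, 126, 143 and 158 CPM in DOX OIL and 142, 130 and 152 CPM in PBS OIL. Acaca rose by 1.17 ± 0.28 under DOX and 1.19 ± 0.28 under PBS. Agpat2 rose by 1.28 ± 0.19 under DOX and 0.68 ± 0.19 under PBS. Cebpa rose by 0.96 ± 0.34 under PBS and was at 0.55 ± 0.34 under DOX (adjusted p = 0.159). Adipoq, for comparison, was at -2.14 ± 1.41 under DOX (adjusted p = 0.185) and at 0.19 ± 1.23 under PBS (adjusted p = 0.903).

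Gpr81 was lower with estradiol in both arms. It averaged 0.213 ± 0.184 CPM in DOX E2 and 17.2 ± 4.68 CPM in DOX OIL (SD, n = 3 each), a log2 fold change of -6.25 ± 0.72 (adjusted p = 1.05e-06, edgeR). It averaged 3.78 ± 3.55 CPM in PBS E2 and 21.8 ± 6.12 CPM in PBS OIL, a log2 fold change of -2.47 ± 0.52 (adjusted p = 0.000707). Cidea fell by 3.44 ± 0.43 under DOX and by 1.02 ± 0.33 under PBS. Slc2a4 averaged 4.82 ± 0.923 CPM in DOX E2 and 28.3 ± 6.23 CPM in DOX OIL, and fell by 2.55 ± 0.33 (adjusted p = 3.68e-06). Under PBS it was at -0.58 ± 0.30 (adjusted p = 0.104), and it was called lower there only without PBS E2 replicate 1. Thrsp fell by 1.32 ± 0.38 and Plin4 by 2.25 ± 0.62 under DOX.

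The count of fat-cell genes in the DOX arm turned on 1 library. Without DOX E2 replicate 3, which held 307 of the 309 Adipoq reads of its group, 12 fat-cell genes were called lower rather than 3. In the vehicle arm the fat-cell count was 1 without PBS E2 replicate 2 or PBS OIL replicate 2, since Cidea was lost, and without PBS E2 replicate 2 the others numbered 8. Omitting PBS E2 replicate 1, the library richest in Adipoq, added Pck1, Slc2a4, Lipe and Pnpla2 as called lower with E2. Cebpa was then no longer called. Slc2a4 was at -0.91 (adjusted p = 0.0262, edgeR) and Pck1 at -1.99 (adjusted p = 0.0405) in that fit. Fasn, Acaca, Acly, Agpat2 and Gpr81 were called in both arms under every omission.

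Progesterone was read as P4 against OIL. In the DOX arm 29.8% of all genes were called. Of the fat-cell genes 2 of 13 fell, Cidea by 1.73 ± 0.35 and Gpr81 by 2.08 ± 0.52, and 0 rose. Of the others 2 of 18 rose, Acaca by 1.05 ± 0.28 and Acly by 0.29 ± 0.10, and 1 fell, Dgat1 by 0.64 ± 0.16. Adipoq was at -0.98 ± 1.32 (adjusted p = 0.613, edgeR).

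In the vehicle arm 31.8% of all genes were called, and more of the listed genes were. Of the fat-cell genes 6 of 13 fell (Retn, Cidea, Pck1, Adrb3, Gpr81 and Cyp2e1) and 1 rose (Thrsp, by 1.19 ± 0.37, adjusted p = 0.0249, edgeR). Of the others 8 of 18 fell (Lpl, Scd1, Pparg, Dgat1, Lipe, Pnpla2, Acsl1 and Gpd1) and 1 rose (Acly, by 0.27 ± 0.10). No fat-cell gene had overlapping groups, with 12 lower and Thrsp higher in PBS P4, against 46.1% of all genes without overlap. Adipoq averaged 8.30 ± 11.3 CPM in PBS P4 and 101 ± 74.7 CPM in PBS OIL, a log2 fold change of -3.60 ± 1.40 (adjusted p = 0.0623). Lpl averaged 32.4 ± 25.3 CPM in PBS P4 and 279 ± 254 CPM in PBS OIL and fell by 3.11 ± 0.89 (adjusted p = 0.0155).

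These counts also rested on single libraries. The fat-cell count was 3 without PBS OIL replicate 2, the richest OIL library in Adipoq, 2 without PBS P4 replicate 2 or 3, and 12 without PBS P4 replicate 1. Without PBS OIL replicate 2, PBS P4 replicate 2 or PBS P4 replicate 3, the other genes called numbered 1, 2 and 1. Cidea, Gpr81 and Dgat1 were called under every omission.

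The interaction asked whether E2 changed a gene differently under DOX and under PBS, and 22.9% of all genes were called. Of the fat-cell genes 3 of 13 were called, all negative, which means a lower E2 response under DOX. They were Gpr81 at -3.78 ± 0.90 (adjusted p = 0.00827, edgeR), Cidea at -2.42 ± 0.55 (adjusted p = 0.00645) and Thrsp at -1.74 ± 0.53 (adjusted p = 0.0292). Of the others 2 of 18 were called, Plin4 at -2.60 ± 0.85 (adjusted p = 0.0374) and Slc2a4 at -1.97 ± 0.44 (adjusted p = 0.006). Adipoq was at -2.33 ± 1.87 (adjusted p = 0.388) and Fasn at -0.36 ± 0.35 (adjusted p = 0.485).

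Cidea, Gpr81 and Slc2a4 were called in the E2 interaction under every omission of 1 library. Without DOX E2 replicate 3 the fat-cell genes called there numbered 6. Omitting PBS E2 replicate 2 gave 4 of the others, and the count was 1 on omitting DOX E2 replicate 1 or 2, DOX OIL replicate 2 or 3, or PBS OIL replicate 1 or 3. With DOX E2 replicates 1 and 2 both left out, edgeR called 0 of the 31. The P4 interaction called 0.00645% of all genes and 0 of the 31. At an unadjusted p under 0.05 there was 1 of the 31 (Pck1), beside 525 of all 15494 genes. DESeq2 called 0 of the 31 and 2 genes in all.

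To set the fat level aside, the model was refitted with the fat score of the 16 other fat cell genes as a covariate. The score was -0.80, -0.69 and 0.39 in DOX E2 and 3.19, 0.82 and 1.87 in PBS E2, so the groups did not overlap in it and the fit leaned on the spread inside groups. The fit gives a gene the same log2 slope at every level of the score. For genes with a floor at low Adipoq, a higher call with the score was not separated from that floor. Some of the 16 genes, such as Tmem45b, did not follow Adipoq. Tmem45b had 7.59 and 7.27 CPM in DOX E2 replicates 1 and 2 and 0.278 CPM in PBS E2 replicate 1, and the list was kept whole.

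With the score in the model, 2 fat-cell genes and 1 of the others were still called lower in DOX under E2, where 30.9% of all genes were called. Cidea was at -2.68 ± 0.64 (adjusted p = 0.00623, edgeR), Gpr81 at -2.45 ± 0.84 (adjusted p = 0.0394) and Slc2a4 at -1.38 ± 0.43 (adjusted p = 0.0262). Adipoq was at 0.23 ± 0.98 and Plin1 at 0.47 ± 0.84, and neither was called. Pparg was called higher, at 1.71 ± 0.38 (adjusted p = 0.00409), and so was Agpat2, at 0.87 ± 0.26 (adjusted p = 0.02).

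For E2 against OIL with the score in the model, 69.4% of all genes were called under DOX and 63.1% under PBS. Under DOX 1 fat-cell gene was called higher and 2 lower, and of the others 10 of 18 were called higher and 2 lower. Besides Fasn at 1.45 ± 0.29, Acaca at 1.71 ± 0.28, Acly at 0.66 ± 0.12 and Agpat2 at 1.62 ± 0.21, genes not called without the score were now called higher. These were Pck1 at 1.61 ± 0.36, Lpl at 1.36 ± 0.34, Scd1 at 0.77 ± 0.31, Pparg at 2.06 ± 0.31, Cebpa at 1.16 ± 0.36, Lipe at 0.92 ± 0.28 and Gpd1 at 1.82 ± 0.36. Mean CPM in DOX E2 and DOX OIL was 5.42 and 7.91 for Pck1, 45.9 and 85.3 for Lpl and 85.0 and 198 for Scd1. It was 3.35 and 3.325 for Pparg, 38.7 and 26.4 for Cebpa, 31.2 and 40.8 for Lipe and 19.8 and 18.3 for Gpd1. Gpr81 at -5.42 ± 0.65, Cidea at -3.42 ± 0.53, Slc2a4 at -2.17 ± 0.36 and Plin4 at -0.92 ± 0.34 were called lower.

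Under PBS 0 fat-cell genes were called higher and 2 lower with the score, Gpr81 at -2.68 ± 0.42 and Cidea at -1.02 ± 0.33. Of the others 8 of 18 were called higher and 0 lower. They were Fasn at 1.44 ± 0.23, Acaca at 1.14 ± 0.22, Acly at 0.67 ± 0.10, Agpat2 at 0.67 ± 0.16, Cebpa at 0.99 ± 0.28, Scd1 at 0.94 ± 0.24, Pnpla3 at 1.35 ± 0.48 and Gpd1 at 0.74 ± 0.27.

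In the E2 interaction with the score, 24.2% of all genes were called. The listed genes called went both ways, 3 negative and 3 positive. Gpr81 was at -2.74 ± 0.82 (adjusted p = 0.0268, edgeR), Cidea at -2.40 ± 0.62 and Slc2a4 at -1.59 ± 0.45. Pck1 was at 2.14 ± 0.45 (adjusted p = 0.00404, edgeR), Pparg at 1.72 ± 0.39 and Agpat2 at 0.96 ± 0.26. For P4 against OIL under PBS, where 23.1% of all genes were called with the score, 2 of 13 fat-cell genes were called, Cidea at -1.63 ± 0.47 and Thrsp at 1.91 ± 0.43. Acaca at 1.22 ± 0.29 was the 1 of the 18 others called there.

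**Figure D4:**
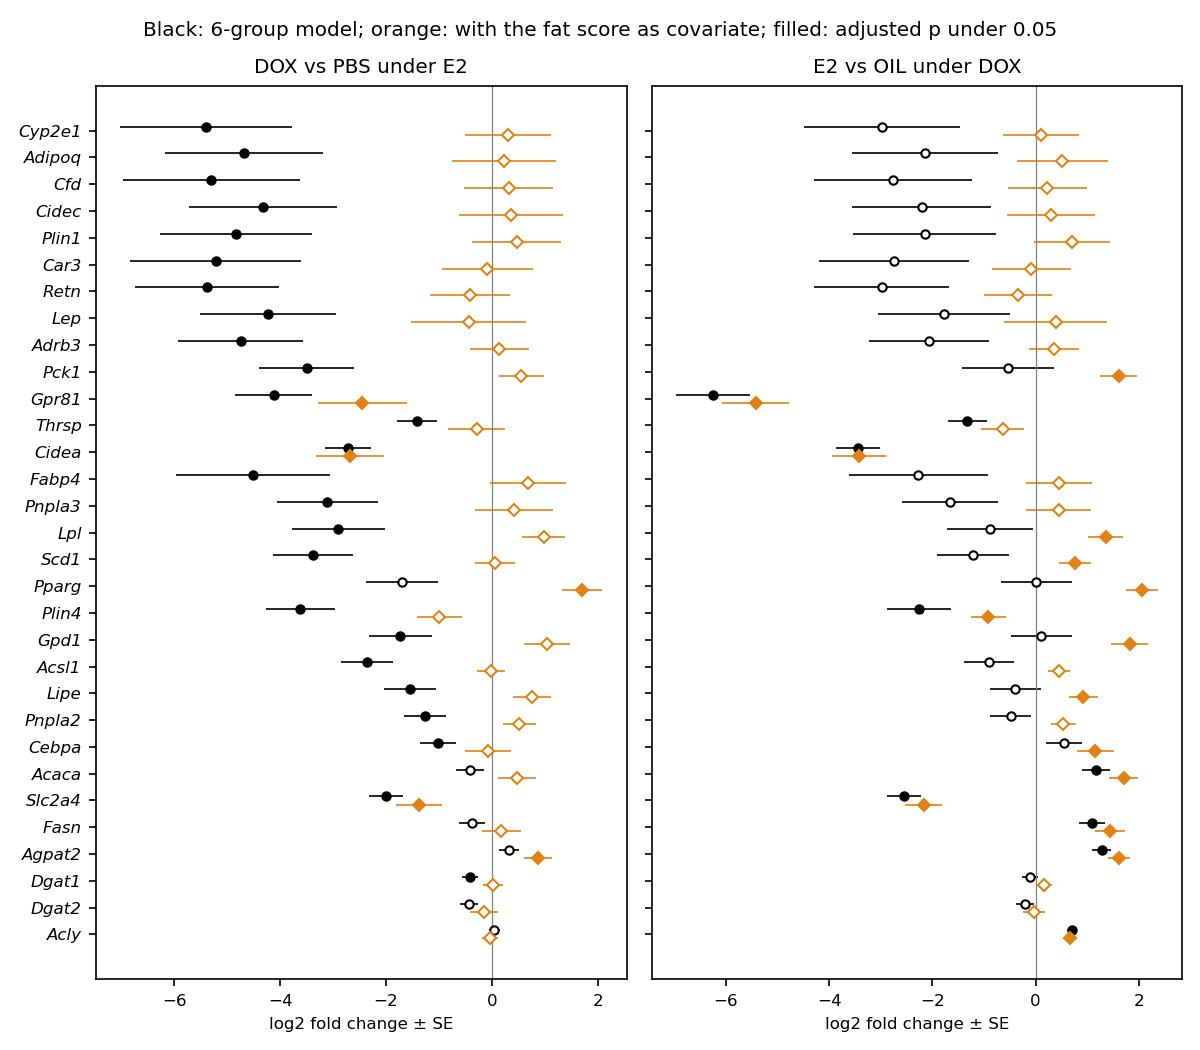
log2 fold changes with their SE for the 31 genes tested, for DOX against PBS under E2 (left) and E2 against OIL under DOX (right). Black circles are the model of 6 groups, orange diamonds the model with the fat score, and filled symbols have an adjusted p under 0.05. In the left panel Adipoq was at 0.23 with the score, while Gpr81, Cidea and Slc2a4 stayed below 0 in both panels. In the right panel Fasn, Acaca and Agpat2 stayed above 0, and genes such as Pparg and Gpd1 were called higher only with the score.

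Lists of other genes were read beside these, and for DOX under E2 41% of all genes were called. Of the 16 other fat cell genes, 13 fell in DOX E2 against PBS E2 and 0 rose, with Slc36a2, an amino acid transporter, at -3.56 ± 0.65 (adjusted p = 0.000581, edgeR), Klb, the co-receptor for FGF21, at -5.02 ± 1.11 and Tusc5, a partner of the Slc2a4 transporter in fat, at -3.63 ± 0.80. Of 13 other genes of lipid synthesis 3 fell and 0 rose, with a median log2 fold change of -0.06. They were Acss2, which makes acetyl-CoA from acetate, at -1.76 ± 0.18, and the desaturases Fads1 at -0.55 ± 0.10 and Fads2 at -0.70 ± 0.17. Acss2 had 4.91, 5.83 and 5.09 CPM in DOX E2, against 21.4, 13.3 and 19.0 CPM in PBS E2, and its levels in the other 4 groups lay between 14.9 and 21.6 CPM.

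Of 12 other lipid droplet genes tested, 5 fell and 0 rose in DOX E2 against PBS E2, where 41% of all genes were called. The smallest p-values were those of Lpin1 (lipin-1, of triglyceride synthesis) at -2.25 ± 0.46, G0s2 (an inhibitor of Pnpla2) at -1.40 ± 0.38 and Bscl2 (seipin) at -0.48 ± 0.13. For E2 against OIL in the DOX arm, 6 of 13 lipid synthesis genes rose and 4 fell, where 72.6% of all genes were called. In the vehicle arm 3 rose and 2 fell, where 61.4% of all genes were called.

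The 12 non-member genes whose levels stayed closest to the sum of the 14 fat-cell genes over the 18 libraries were B3galt2, Cd36, Slc36a2, Abcd2, Tusc5, Ces1f, Nnat, Slc7a10, Apoc1, Serpina3c, Acsm3 and Acvr1c. The SD of the log2 ratio to that sum was 0.58 for B3galt2, 0.74 for Cd36 (a fatty acid receptor) and 0.97 for Acvr1c, against a median of 2.08 over all genes. Cd36 had 4.13, 9.39 and 25.1 CPM in DOX E2, against 278, 23.0 and 60.1 CPM in PBS E2. Since Thrsp made up most of the sum in the libraries poorest in fat, the measure was repeated on the sum of the 9 genes, and Acsm3, at 1.14, and Slc7a10, at 1.27, then came first, against a median of 3.30.

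Markers of other cell types were checked because fat comes with other tissue. For DOX under E2, the share of all genes called was 41%. Of 5 mesothelium markers, the lining of the peritoneal surface, 3 fell in DOX E2 against PBS E2 (Upk3b at -1.75 ± 0.48, Gpm6a at -1.77 ± 0.60 and Lrrn4 at -1.91 ± 0.63). Their summed level was 15.4, 17.1 and 95.2 CPM in DOX E2 and 140, 124 and 137 CPM in PBS E2, and no marker was at 0 in any library. The 2 DOX E2 libraries nearly without Adipoq were thus also the lowest in mesothelium markers of the 18, the others ranging from 61.8 to 184 CPM. The part of attached tissue in the results was not tested.

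Vessel and macrophage markers were read in the same way, beside the same 41% of all genes called. The 8 endothelium markers summed to 629 to 856 CPM in DOX E2 and 542 to 878 CPM in PBS E2, and 2 fell (Cldn5 and Gpihbp1, which holds lipoprotein lipase on vessels) and 1 rose (Kdr). Of 6 macrophage markers Cd163 had the smallest p for DOX under E2 and was not called, with a log2 fold change of -2.20 ± 0.87 (adjusted p = 0.0546, edgeR). Their sum was 1698 CPM in PBS OIL replicate 2, where Lyz2 (lysozyme) had 1453 CPM and Cd68 98.1 CPM, against 261 and 449 CPM in the other 2 PBS OIL libraries. Cd36 reached 405 CPM and Fabp5, a fatty acid carrier, 75.3 CPM in that library, so high levels of fat genes stood beside high macrophage markers there. This was not so in PBS E2 replicate 1. Its fat-cell sum was the highest, at 4238 CPM, and its macrophage sum was 359.9 CPM. The part of macrophages in the results was not tested.

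Of 6 brown fat markers tested 2 fell, Cidea and Cox8b, and 1 rose, Dio2 (the thyroid hormone deiodinase), at 2.19 ± 0.46, with 554, 447 and 277 CPM in DOX E2, against 117, 86.0 and 77.7 CPM in PBS E2. Dio2 made up most of the summed brown fat list in DOX E2 (560, 450.5 and 282.4 CPM), where Ucp1 had 0, 1 and 1 reads. Cox8b, a subunit of cytochrome oxidase, was at -1.47 ± 0.50 and reached at most 1.92 CPM in any library. Of the lymphoid markers, Cd79a was at -0.44 ± 0.48 and was not called. Of 5 skeletal muscle genes tested 2 fell, Tnnt3 by 1.55 ± 0.23 and Actn3 by 1.19 ± 0.39. Of 9 uterine genes Krt8 (an epithelial keratin) rose by 0.84 ± 0.22 and Esr1 (estrogen receptor α) fell by 0.70 ± 0.15. All these counts are for DOX E2 against PBS E2, where 41% of all genes were called.

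**Figure D5:**
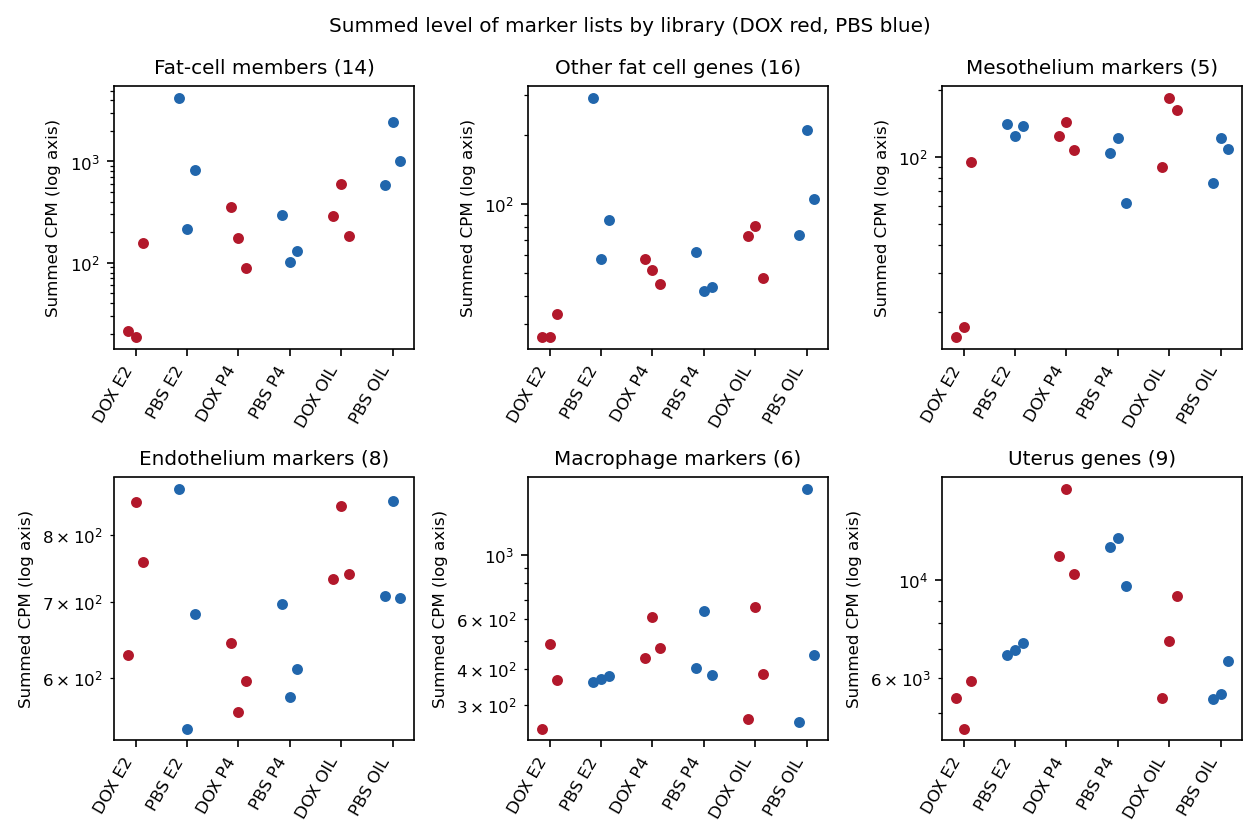
Summed CPM (vertical, log axis) of 6 marker lists in the 6 groups, 1 point a library, red for DOX and blue for PBS, with the number of genes in each list in its title. The fat-cell genes ranged from 18.5 to 4238 CPM, and the mesothelium markers were lowest in the same 2 DOX E2 libraries.

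Reads of 8 of the genes could be shared with an annotated neighbour, since Adrb3, Plin4, Cebpa, Lipe, Pnpla3, Acsl1, Agpat2 and Gpd1 overlap exons of another gene in GENCODE M21 and no source used here gives the strand setting of the counting.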

How the data were processed

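Raw counts per gene symbol, as deposited by the authors in 1 table of 18 libraries, were used. Uterine RNA was taken up in Trizol, and the libraries were made with Illumina's TruSeq chemistry for total RNA, per the labels' protocols. Without roles, the submitters' processing notes list GRCm38 as the build, R 3.4.4 and DESeq2 1.18.1, then StringTie 1.3.4d and SAMtools 1.6, and also HISAT2 2.1.0, FastQC 0.11.5 and Trimmomatic 0.36. The tool that counted is not known from them.

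Genes were filtered with filterByExpr, scaled by TMM and fitted with edgeR 4.0.16 (quasi-likelihood, R 4.3.3) in 1 model of 6 groups with 12 residual degrees of freedom. P-values were adjusted by Benjamini-Hochberg over 15494 genes in each comparison, at 0.05. An SE is the log2 fold change over the square root of its F value. CPM used TMM library sizes. The steps were tested on simulated counts with the same dispersion for every gene and no library rich in fat. That test does not cover genes as variable as the fat-cell genes. Alternatives were DESeq2 1.42.0, its size factors, other filters, a replicate block, fits on the compared groups and the fat score covariate. Each library of the groups compared was also left out in turn. Omissions of 2 libraries together and the 9-gene and per-Adipoq ratios were chosen after seeing the data.

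Members and lists were chosen with earlier results of these data known. The text names all 32 genes, up to 3 genes of each other list by p for DOX under E2, and the 12 genes closest to the fat-cell sum; other names were chosen after their values were seen. Replicate libraries differed beyond counting noise (chi-square per degree of freedom 15.7 to 69.4), so none was treated as a copy. Counting error is small beside the spread between libraries except for genes with few reads. Positions are from GENCODE M21.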

Additional observations from a re-analysis of the deposited data

Results flagged for a closer look

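For 5 of the genes the response to E2 differed between the DOX and PBS arms in edgeR's test of the interaction, given as the log2 response under DOX minus that under PBS. The difference was -3.78 for Gpr81, -2.60 for Plin4, -2.42 for Cidea, -1.97 for Slc2a4 and -1.74 for Thrsp, all lower under DOX. Cidea rested on 2 reads in each DOX E2 library, and Gpr81 on 14 reads in all 3 together. Thrsp and Plin4 were not called with the fat score in the model (adjusted p = 0.201 and 0.108, edgeR). Nor were these 2 called without PBS E2 replicate 1. Without that library Agpat2 was called in the other direction, at 0.96 (adjusted p = 0.000609, edgeR).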

How the results depend on the processing

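With the fat score as covariate, these log2 fold changes for DOX under E2 turned positive: Adipoq 0.23, Cfd 0.32, Plin1 0.47, Cidec 0.36, Pck1 0.56, Adrb3 0.14, Cyp2e1 0.30, Fabp4 0.68, Lpl 0.98, Scd1 0.06, Dgat1 0.02, Lipe 0.76, Pnpla2 0.52, Pnpla3 0.42 and Gpd1 1.04. For P4 under PBS they were Pck1 0.10, Scd1 0.08, Pparg 0.26 and Lipe 0.10. With the covariate, 2 fat-cell and 3 other genes were called for DOX under E2, 12 others for E2 under DOX and 8 others for E2 under PBS. For P4 under DOX 4 fat-cell genes were called, where 31% of all genes were. Of these Cidea and Gpr81 were lower, and Pck1, at 1.15, and Thrsp, at 0.94, were higher and called only with the score. For P4 under PBS 2 fat-cell genes and 1 other were called. Fits on the compared groups alone, with fewer samples, called 6 fat-cell and 6 other genes for DOX under E2. They called 1 fat-cell gene for E2 under PBS, 6 others for P4 under DOX and 1 other in the E2 interaction. Without a filter, 4 fat-cell genes were called for P4 under PBS and 1 other in the E2 interaction. Without PBS E2 replicate 1 and PBS OIL replicate 2 together, 5 fat-cell and 5 others were called for DOX under E2, 1 fat-cell for E2 under PBS and 4 fat-cell for P4 under PBS. Agpat2, among the 5 others, was called higher for DOX under E2, at 0.70. Without DOX E2 replicates 1 and 2 together, 2 and 1 were called for DOX under E2, and 0 and 0 in the E2 interaction. The share of all genes called was not recorded for the fits on compared groups, without a filter, with the block or with libraries left out. A change in their counts was thus not separated from a change over all genes. The cause was not tested.

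Each library of the groups compared was left out in turn. For fat-cell genes this gave 4 to 13 called for DOX under E2, 3 to 12 for E2 under DOX and 1 to 3 for E2 under PBS. It gave 2 to 12 for P4 under PBS and 2 to 6 in the E2 interaction. For the others it gave 4 to 15, 6 to 8, 4 to 8, 1 to 8 and 1 to 4, and 2 to 3 for P4 under DOX. Same-numbered libraries were not treated as paired: of 45 pairs 12 had deviations correlated above 0.1 (-0.28 to 0.36). DOX OIL and PBS OIL had 0.28, 0.36 and 0.09, and whether libraries were paired was not settled. With the replicate block, 10 fat-cell and 11 other genes were called for DOX under E2, 9 and 9 for P4 under PBS, and 1 other in the E2 interaction. DESeq2 called 13 and 14 for DOX under E2, and 6561 genes in all. Depth limits Cidea, Gpr81 and Ucp1, which had few reads.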
